A study of Mus musculus with 12 samples.

Results

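The 10 genes described here encode antimicrobial proteins of saliva and of the leukocytes that reach it: Lyz1, Lyz2, Ltf, Lpo, Slpi, Wfdc18, Lcn2, S100a8, S100a9 and Camp. They were taken by symbol from a table of 56065 genes. The libraries hold bulk RNA of submandibular glands (SMGs), taken at 8 weeks of age. The mice were C57BL/6J, hereafter wild type, or C57BL/6J-Pou2f3-/-, which are knocked out for Pou2f3. Each sex and genotype had 3 replicates, so the 4 groups were wild-type female, Pou2f3-/- female, wild-type male and Pou2f3-/- male, for 12 libraries in all. Pou2f3 is the transcription factor that tuft cells, a rare chemosensory epithelial cell type, need in order to form.

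Saliva holds bacteria in check in several ways. Lysozymes cut the peptidoglycan of bacterial cell walls. Lactoperoxidase (Lpo) uses hydrogen peroxide to turn thiocyanate into an oxidant that bacteria tolerate poorly. Lactoferrin (Ltf) binds iron, and lipocalin (Lcn2) binds the siderophores with which bacteria collect iron. Slpi and Wfdc18 are small proteins of the whey acidic protein family, and Slpi inhibits serine proteases of neutrophils. S100a8 and S100a9 pair to form calprotectin, which withholds zinc and manganese from microbes, and Camp is the precursor of the cathelicidin peptide; all of these last genes are strongly expressed by neutrophils. The mouse SMG differs between the sexes, because males have larger granular convoluted tubules, the duct segments that make growth factors and kallikreins.

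Total counts per library ranged from 47032175 to 67882207, and values are given as CPM, the counts scaled to a common library size after TMM adjustment. Pou2f3 itself was near the limit of detection, with 0 to 10 counts in the wild-type libraries and 0 to 3 in the knockout libraries, so it gave no check of the genotype labels. The acinar markers Aqp5, Prol1 and Pip and the convoluted tubule markers Egf and Klk1b22 were detected in all 12 libraries. Some libraries stood apart. Wild-type female replicate 1 held 43.4 CPM of Adgre1, a macrophage marker, against 4.26 to 10.9 CPM in the other libraries. Muc19, a mucin of the neighbouring sublingual gland, reached 4901 CPM in Pou2f3-/- female replicate 3 and 7391 CPM in wild-type male replicate 3, and at most 174 CPM elsewhere. Amy1, an amylase of the parotid gland, reached 919 CPM in Pou2f3-/- male replicate 2 and 124 CPM in wild-type male replicate 3, and at most 22.8 CPM elsewhere. Values without these 3 libraries (Pou2f3-/- female replicate 3, wild-type male replicate 3 and Pou2f3-/- male replicate 2) are given where they change a call of one of the 10 genes. Of the genes of the related and marker lists described below, 21 were called between genotypes in females and 8 of these calls held without the 3 libraries. The share of all genes called there went from 36.9% to 21%. All 18 of their calls for a genotype effect that differed between the sexes were lost without them (adjusted p from 0.092 to 0.25, each with the same sign), where 0.0164% of all genes were called. Of their 43 calls between the sexes in wild type 31 held, and of the 45 among the knockouts 24 held. Over all genes the share called went from 36.5% to 23.2% and from 43.5% to 24.2%. In whole-gland RNA, fewer cells of a type and less RNA per cell cannot be told apart.

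Of the 10 genes, 6 passed the filter on low counts and were tested (Lyz1, Lyz2, Ltf, Lpo, Wfdc18 and Lcn2), and 4 did not (Slpi, S100a8, S100a9 and Camp). Per kilobase of transcript and averaged over the 12 libraries, Lpo was highest at 153 CPM per kb. Lcn2 followed at 32.6, Wfdc18 at 22.0 and Lyz2 at 14.7 CPM per kb. Lyz1 was at 1.51 and Ltf at 0.0619 CPM per kb. The place of Lcn2 comes from males, at 52.6 and 76.2 CPM per kb in wild type and Pou2f3-/-, whereas the female groups were at 1.04 and 0.658. A gene was called when its adjusted p in edgeR's quasi-likelihood test was under 0.05. In females, 1 of the 6 tested genes was called between Pou2f3-/- and wild type (Lpo, lower). Of all 17893 genes tested, 36.9% were called there in either direction, 17.6% higher and 19.3% lower. In males none of the 6 was called, where 0.235% of all genes were. In males 3 of the 6 had an unadjusted p under 0.05 in edgeR, and DESeq2 called 2 (Lyz1 and Lpo), where it called 2.31% of all genes with an adjusted p. Counts under an unadjusted p, here and below, have no share of all genes beside them, so they cannot show an excess. The difference between the sexes in the genotype effect was called for 2 of the 6, Lyz1 and Lyz2, against 25.7% of all genes. Between male and female wild type, 4 of the 6 were called (Lcn2, Lpo, Lyz1 and Lyz2), against 36.5% of all genes in either direction, 20.5% higher and 16% lower in males. Between male and female knockouts, 3 of the 6 were called (Lcn2, Wfdc18 and Lpo), against 43.5% of all genes, 23.2% higher and 20.3% lower in males. These shares of all genes also apply to the gene lists below.

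**Figure D1:**
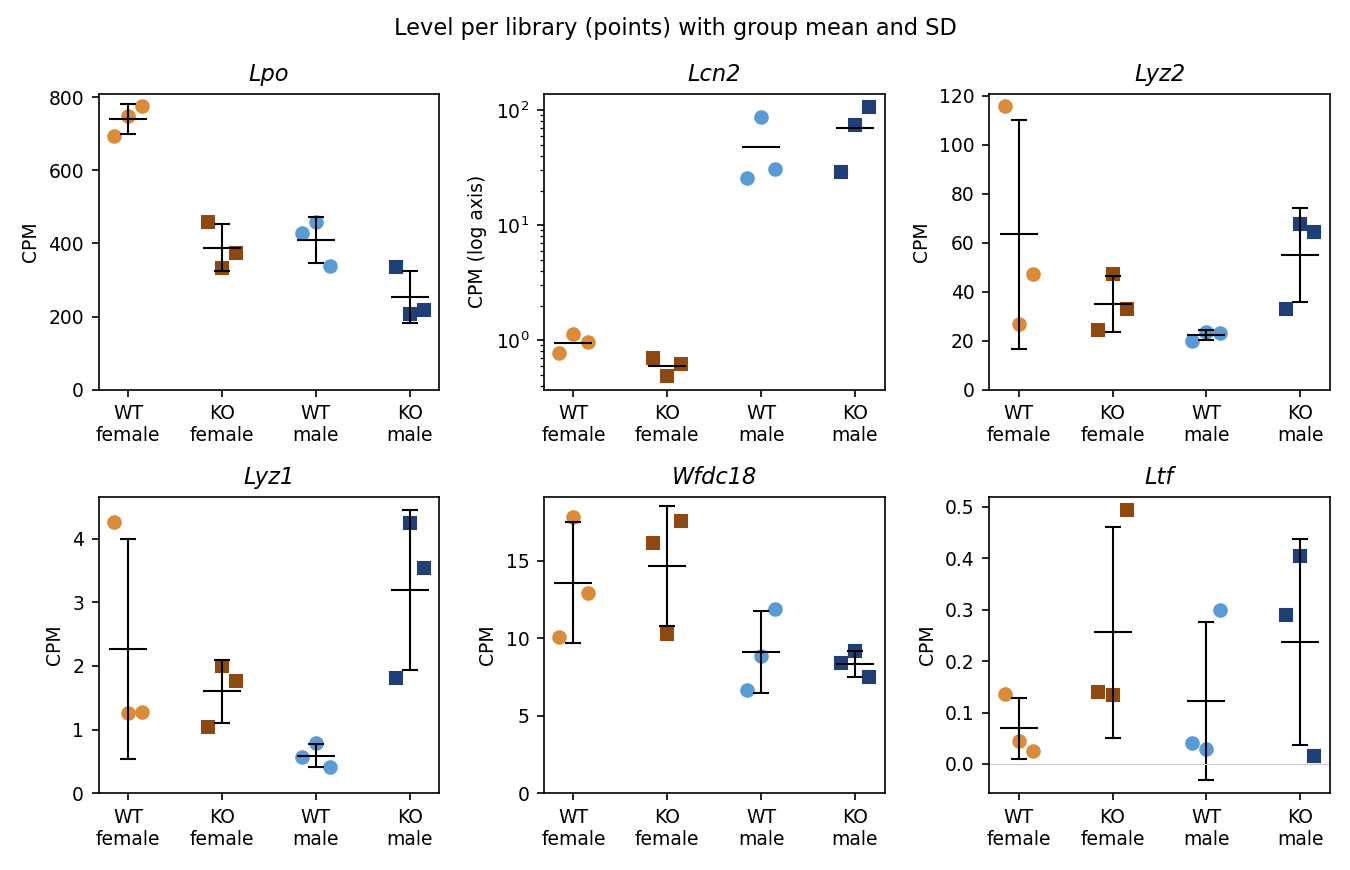
Level of the 6 tested genes in CPM in each of the 12 libraries (points), by group, with the mean of 3 replicates (bar) and, except for Lcn2, the SD (error bar); Lcn2 is on a log axis. Lpo was highest in wild-type females, Lcn2 was high in all 6 male libraries and low in all 6 female ones, and wild-type female replicate 1 stood far above its group for both lysozymes.

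**Figure D2:**
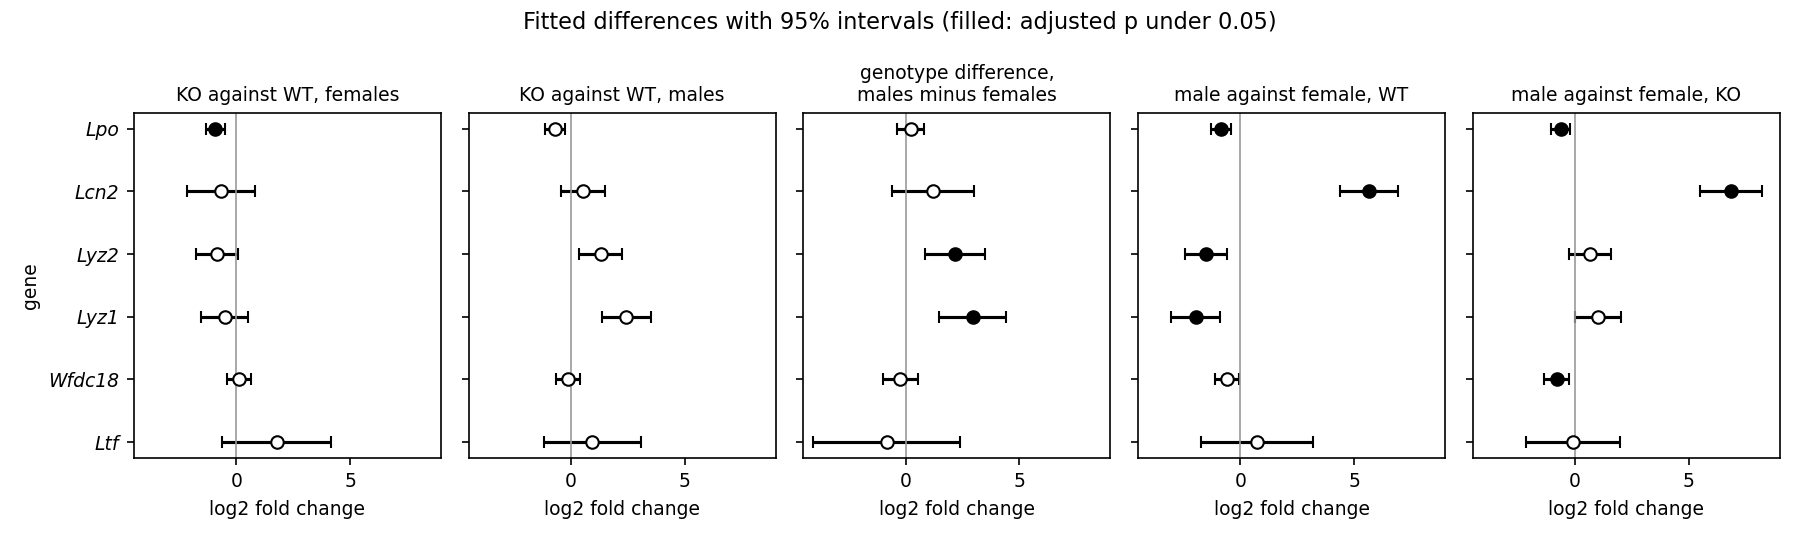
Fitted log2 fold change (points) with 95% interval (bars) of the 6 tested genes in the 5 comparisons; filled points have an adjusted p under 0.05. Lcn2 between the sexes lay farthest from 0, and the intervals of Ltf spanned 0 in all 5 panels.

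Lpo, the peroxidase, was the most abundant transcript of the set by mean level per kb in each group, and was lower in Pou2f3-/- than in wild-type females. In Pou2f3-/- males the means of Lpo and Lcn2 were close, at 86.3 and 76.2 CPM per kb. The gene (ENSMUSG00000009356.13) lies on the minus strand at chr11:87697253-87719369 of GRCm39. Its level was 694, 747 and 775 CPM in wild-type females and 458, 334 and 374 CPM in Pou2f3-/- females. The groups did not overlap, which was also so for 49.3% of all genes tested. Lpo was 739 CPM ± 41.0 (SD, n = 3) in wild-type and 389 CPM ± 63.6 (SD, n = 3) in Pou2f3-/- females, and fell by 0.93 on the log2 scale (SE 0.20, adjusted p = 0.0032), a level 1.90-fold lower.

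In males, Lpo was at 429, 460 and 339 CPM in wild type and at 335, 206 and 217 CPM in Pou2f3-/-. These groups did not overlap either (14.5% of all genes tested), but the difference of -0.70 (SE 0.20) was not called (adjusted p = 0.18). It was called with DESeq2 (-0.68, adjusted p = 0.017), without a filter on low counts (-0.69, adjusted p = 0.043) and without Pou2f3-/- male replicate 1 (-0.95, adjusted p = 0.017). In that order these settings called 2.31%, 1.26% and 3.42% of all genes in males, against the 0.235% given above. The genotype effect of Lpo was not shown to differ between the sexes, as the difference was 0.23 with a 95% interval from -0.37 to 0.83 (adjusted p = 0.56).

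Relative to the median gene, males had less Lpo than females within each genotype, whereas with library totals alone the sign in wild type turned (0.04). Wild-type males were lower by 0.85 on the log2 scale (SE 0.20, adjusted p = 0.0045), and the 3 libraries of each sex did not overlap (47.6% of all genes tested). Among the knockouts the difference was -0.62 (SE 0.20, adjusted p = 0.021) and the groups overlapped slightly, with 335 CPM in the highest male and 334 CPM in the lowest female library. This call was lost without Pou2f3-/- female replicate 1 (-0.44, adjusted p = 0.12) or replicate 3 (-0.60, adjusted p = 0.051), and without Pou2f3-/- male replicate 2 (-0.49, adjusted p = 0.096) or replicate 3 (-0.52, adjusted p = 0.094). It was also lost without the 3 libraries highest in Muc19 or Amy1 (-0.52, adjusted p = 0.13) and with library totals alone (-0.34, adjusted p = 0.25). In order of level, wild-type females came first, wild-type males and Pou2f3-/- females overlapped in the middle, and Pou2f3-/- males came last, their highest library just above the lowest Pou2f3-/- female. The genes whose log2 CPM over the 12 libraries was most like that of Lpo were Lss, an enzyme of sterol synthesis (Pearson r 0.972), Cds1 (0.972) and Pam (0.971).

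These Lpo differences are relative to the other genes of the library. With library totals alone in place of TMM, the median of all genes moved by 0.50 in the female genotype comparison, Lpo was at -0.41 (adjusted p = 0.16), and relative to that shift it was at -0.91. Between the sexes in wild type, the same change moved the median of all genes by 0.89 and put Lpo at 0.04 (adjusted p = 0.89), or at -0.85 relative to the shift. The gene lists below were fitted with TMM alone.

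Ratios of counts within a library do not depend on the scaling. The share of all genes whose ratios do not overlap between groups, here and below, was not computed. Over Aqp5, the water channel of acinar cells, Lpo stood at 2.24 to 2.80 in wild-type and 2.24 to 2.71 in Pou2f3-/- females, and at 2.62 to 3.397 and 2.60 to 2.92 in the male groups, so that genotypes overlapped in both sexes. Over Bhlha15, a transcription factor of secretory cells, Lpo stood at 2.17 to 2.44 in wild-type and 1.41 to 1.496 in Pou2f3-/- females. The ratio was 2.21 to 3.15 in wild-type and 1.63 to 1.75 in Pou2f3-/- males, so genotypes did not overlap in either sex. Of the 5 acinar markers compared in this way, Bhlha15 was the one over which the female genotypes did not overlap. In males Pip was another, with 0.0925 to 0.117 in wild type and 0.0718 to 0.0823 in Pou2f3-/-, and over the other 3 the male genotypes overlapped. Aqp5 itself fell in Pou2f3-/- females by 0.94 on the log2 scale (SE 0.16, adjusted p = 0.0011). Among the 7 acinar markers, 3 were lower in Pou2f3-/- females (Aqp5, Pip and Slc12a2), where 19.3% of all genes were. None was called in males (3 with an unadjusted p under 0.05 in edgeR). In male against female wild type 6 were lower, where 16% of all genes were. The call of Slc12a2 in females was lost without the 3 libraries highest in Muc19 or Amy1 (-0.75, adjusted p = 0.094). The part of acinar content in the Lpo differences was not tested.

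**Figure D3:**
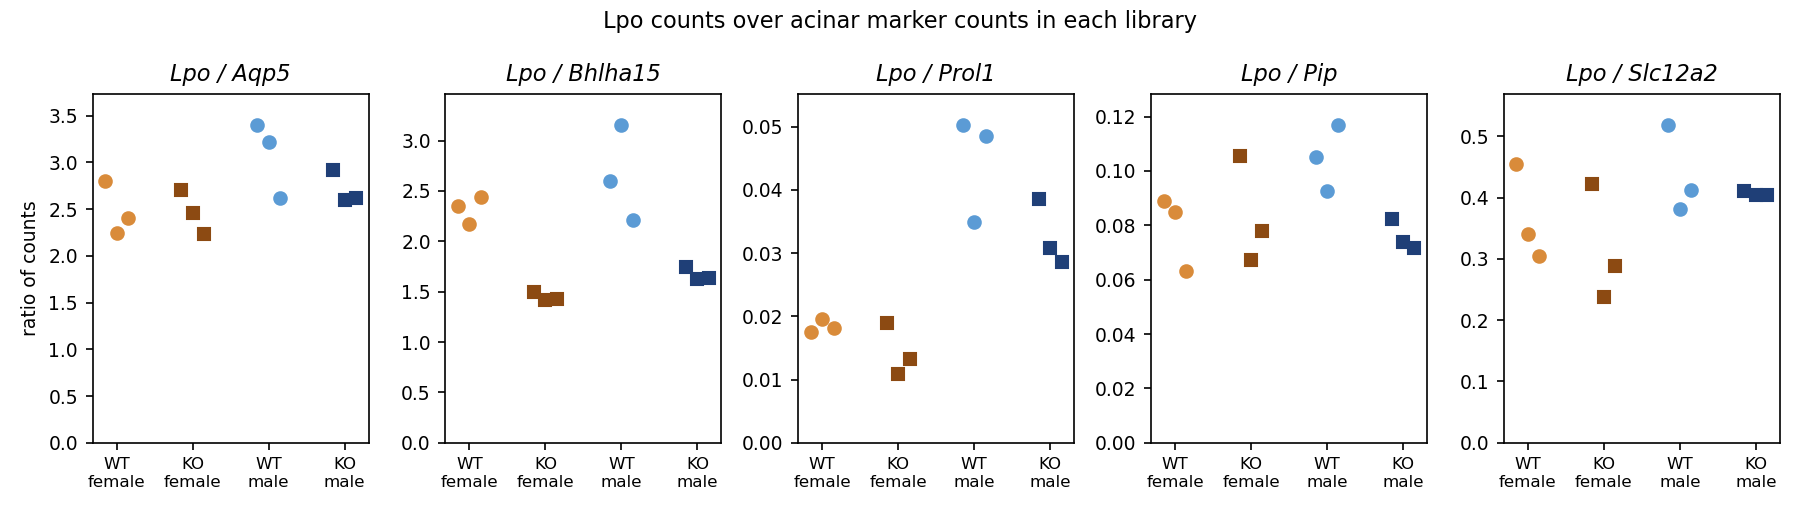
Count of Lpo divided by the count of each of 5 acinar markers in each of the 12 libraries, by group; the 2 other acinar markers of the list, Smgc and Smr3a, were left out after their near absence from some groups was seen. Over Bhlha15 the 6 knockout libraries (1.41 to 1.75) lay below the 6 wild-type libraries (2.17 to 3.15), while over Aqp5, Prol1 and Slc12a2 the genotypes overlapped in both sexes and over Pip in females.

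Lpo needs hydrogen peroxide and thiocyanate. Of 12 genes of the peroxidase system, 8 were tested, and none was called between genotypes in males (2 with an unadjusted p under 0.05 in edgeR). Slc5a5, an anion transporter that carries iodide and thiocyanate, was the one called in females, at 0.942 to 1.40 CPM in wild type and 2.32 to 3.52 CPM in Pou2f3-/-, and it rose by 1.19 on the log2 scale (SE 0.25, adjusted p = 0.003). In males it was at 5.11 to 8.62 CPM in wild type and 5.93 to 7.99 CPM in Pou2f3-/- (0.00, adjusted p = 1.0), and the genotype effects differed between the sexes (-1.19, SE 0.33, adjusted p = 0.022), which was not called without the 3 libraries highest in Muc19 or Amy1 (-1.02, adjusted p = 0.14). Duox2, the oxidase that supplies hydrogen peroxide at mucosal surfaces, was at 22.4 to 105 CPM in wild-type females and at 77.3 to 112 CPM in Pou2f3-/- females, with wild-type female replicate 1 at 105 CPM, and was not called (0.91, adjusted p = 0.14). Its maturation factor Duoxa2 was at 3.79 to 18.6 and 11.2 to 24.1 CPM in the same groups (1.00, adjusted p = 0.12). Duox2 and Duoxa2 are given for their role, after their values were seen. Between the sexes in wild type, Slc5a5 and Cftr, an anion channel of duct cells, were higher in males by 2.58 and 2.06 on the log2 scale, and Gpx3 and Duoxa1 were lower, Duoxa1 not without the 3 libraries (-2.37, adjusted p = 0.17). Between the sexes in the knockouts, Slc5a5 and Cftr were higher in males by 1.39 and 1.30. The other peroxidases Mpo and Epx were at 0 in all 12 libraries. The median of the 8 tested genes was 0.82 in the female and 0.69 in the male genotype comparison, against 0.03 and -0.04 over all genes tested.

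Lcn2, the siderophore-binding lipocalin, was far higher in males than in females in both genotypes, in all of the settings tried. The gene (ENSMUSG00000026822.15) lies on the minus strand at chr2:32274645-32278264 of GRCm39. In wild-type females it was at 0.778, 1.12 and 0.964 CPM, from 37 to 50 counts, and in wild-type males at 25.8, 87.5 and 30.98 CPM, from 1943 to 6161 counts. In Pou2f3-/- females it was at 0.699, 0.487 and 0.622 CPM, and in Pou2f3-/- males at 28.8, 73.6 and 107 CPM. Each of the 6 male libraries was thus above each of the 6 female libraries. The sexes did not overlap for 47.6% of all genes tested in wild type and for 54.8% among the knockouts. Wild-type males were higher by 5.66 on the log2 scale (SE 0.59, adjusted p = 1e-05), or 50.6-fold, and Pou2f3-/- males by 6.86 (SE 0.62, adjusted p = 3.5e-06), or 116-fold. Without wild-type male replicate 2, its highest library, the wild-type value was 4.90 (adjusted p = 9.6e-06).

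Knockout and wild type were not called different for Lcn2 in either sex. In females the 3 Pou2f3-/- libraries lay below the 3 wild-type libraries (no overlap in 49.3% of all genes tested), with a fitted difference of -0.67 and a 95% interval from -2.17 to 0.84 (adjusted p = 0.48). With library totals alone in place of TMM this difference was -0.16, or -0.66 relative to the shift of the median of all genes. In males the groups overlapped, with a difference of 0.53 and a 95% interval from -0.43 to 1.496 (adjusted p = 0.71), which ran from 0.09 without Pou2f3-/- male replicate 3 to 1.30 without wild-type male replicate 2. The sexes differed in this effect by 1.20 (SE 0.83, adjusted p = 0.30), and without wild-type male replicate 2, the highest of its group, by 1.97 (adjusted p = 0.039).

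Markers of the granular convoluted tubules were high in the same libraries as Lcn2. Of 6 markers, 5 were higher in males of both genotypes and Klk1 was lower, in wild type not without the 3 libraries highest in Muc19 or Amy1 (adjusted p = 0.068). Egf, the epidermal growth factor, was at 340 to 597 CPM in wild-type females and 35150 to 62140 CPM in wild-type males, 93.4-fold higher (6.55 on the log2 scale, SE 0.40, adjusted p = 1.4e-07). Klk1b22, a kallikrein with close paralogs among which the division of counts is uncertain, was at 60.0 to 130.0 CPM and at 3634 to 7174 CPM in the same groups, 49.1-fold higher (5.62 on the log2 scale, SE 0.45, adjusted p = 1.2e-06). Among the 6 male libraries, wild-type replicates 1 and 3 and Pou2f3-/- replicate 1 had 25.8 to 30.98 CPM of Lcn2 and 35150 to 46470 CPM of Egf, and the other 3 had 73.6 to 107 CPM of Lcn2 and 51500 to 62140 CPM of Egf. Over Egf counts, Lcn2 stood at 0.00166 to 0.00229 in wild-type females and 0.000696 to 0.00141 in wild-type males, without overlap. Over Klk1b22, Klk1b26 and Ren1 counts the sexes overlapped in wild type, and over Klk1b9 they did not.

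In females, the renin gene Ren1, another product of these tubules, was called between genotypes, whereas Lcn2 was not. Ren1 was the 1 called of the 6 tubule markers, where 36.9% of all genes were. Ren1 was at 0.417 to 0.830 CPM in wild-type and at 0.836 to 1.98 CPM in Pou2f3-/- females, a rise of 1.46 on the log2 scale (SE 0.44, adjusted p = 0.021). The ratio of Lcn2 to Ren1 counts was 1.35 to 2.31 in wild-type and 0.246 to 0.744 in Pou2f3-/- females, without overlap. Over Egf counts, Lcn2 stood at 0.000528 to 0.00156 in Pou2f3-/- females, below the wild-type females. Over Klk1b9, Klk1b22 and Klk1b26 counts the female genotypes overlapped, with 0.00786 to 0.0130 in wild type and 0.00278 to 0.0100 in Pou2f3-/- over Klk1b22. In males the ratio to Ren1 was 0.993 to 1.60 in wild type and 0.807 to 1.85 in Pou2f3-/-, with overlap. The 3 genes whose log2 CPM was most like that of Lcn2 over the 12 libraries were Slc41a2 (Pearson r 0.99), Syt16 (0.99) and Suco (0.99), and with group means removed r was 0.88, 0.92 and 0.84. Neutrophils are another known source of Lcn2, and of 15 neutrophil markers, 11 had at most 3 counts in every library, among them Ly6g, Ngp, Elane and Mpo. Mmp9 of the same list, which other cells also make, was higher in males, by 1.35 on the log2 scale in wild type (SE 0.25, adjusted p = 0.0011) and by 1.14 among the knockouts (SE 0.24, adjusted p = 0.002). Neither Csf3r nor Il1r2, the others tested, was called there, with -1.34 (adjusted p = 0.056) and -0.24 in wild type and -0.06 and 1.09 among the knockouts. The part of neutrophil content in the Lcn2 differences was not tested.

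**Figure D4:**
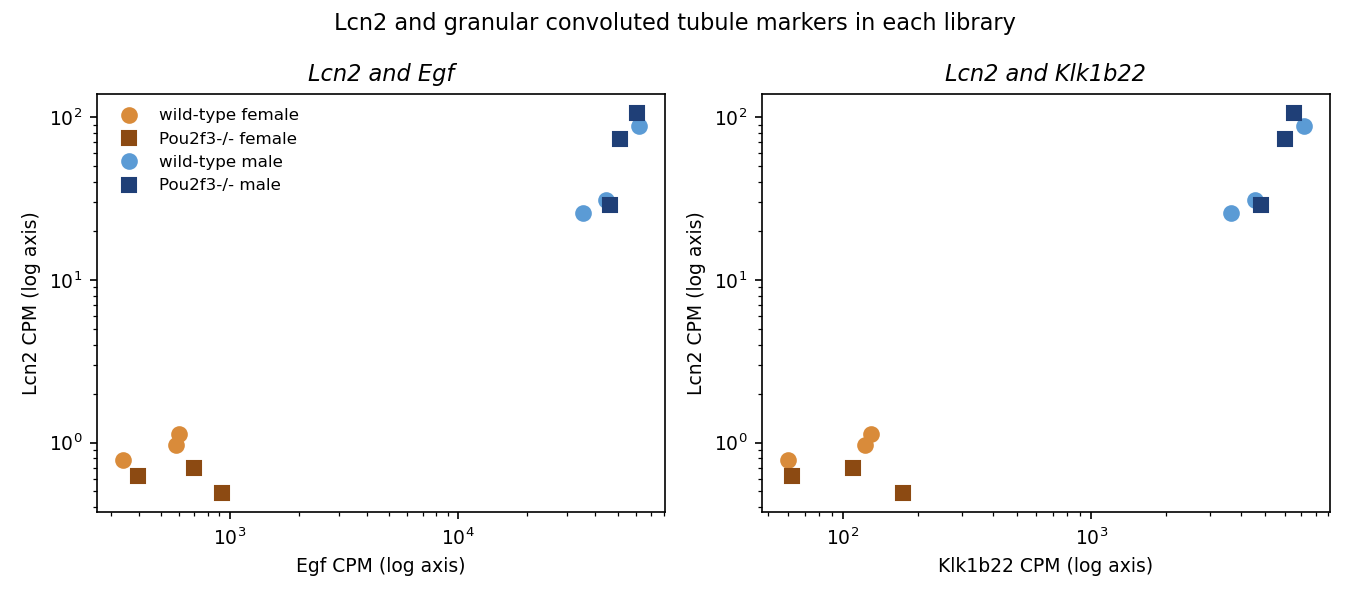
Lcn2 against Egf (left) and Klk1b22 (right), all in CPM on log axes, with 1 point per library. The male libraries lie at 25.8 CPM of Lcn2 or more and the female ones at 1.12 or less. Among females the Pou2f3-/- libraries lie lower in Lcn2 than the wild-type ones after TMM scaling. This difference was not called (edgeR, adjusted p = 0.48), and 49.3% of all genes tested did not overlap there.

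Ltf, the iron-binding lactoferrin (ENSMUSG00000032496.8, plus strand, chr9:110848339-110871835), was close to the limit of detection. It had 7, 2 and 1 counts in wild-type females, 7, 8 and 23 in Pou2f3-/- females, 3, 2 and 21 among wild-type males and 18, 25 and 1 in Pou2f3-/- males. The groups overlapped in all comparisons, and Pou2f3-/- male replicate 1, at 18 counts, stood with the higher libraries. None of the 5 comparisons was called, with differences of 1.77 in females (95% interval -0.64 to 4.18) and 0.94 in males (95% interval -1.18 to 3.07). Leaving out single libraries took them from 0.87 (Pou2f3-/- replicate 3) to 2.68 (wild-type replicate 1) in females and from 0.32 (Pou2f3-/- replicate 2) to 2.71 (wild-type replicate 3) in males. Over the other settings that tested Ltf they ran from 1.60 to 3.05 in females and from 0.94 to 2.02 in males. The highest counts came from Pou2f3-/- male replicate 2, Pou2f3-/- female replicate 3 and wild-type male replicate 3, the libraries with most Amy1 or Muc19. The part of neighbouring gland tissue in the Ltf counts was not tested. The genes most like Ltf were Stn1 (Pearson r 0.88), Sox2 (0.84) and Itga2 (0.81).

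The lysozyme genes Lyz1 and Lyz2 lie side by side on the minus strand of chromosome 10, Lyz1 (ENSMUSG00000069515.7) at chr10:117123698-117128775 and Lyz2 (ENSMUSG00000069516.9) at chr10:117111557-117118346 of GRCm39. Lyz2 is the lysozyme of macrophages and other myeloid cells, and Lyz1 is best known from Paneth cells of the gut. Both coding sequences are 447 bases long and 22 bases differ, an identity of 95.1%. The stretch with most differences is shown because reads from it can be told apart by gene, whereas reads from the longest identical run of 118 bases cannot. It covers coding bases 43 to 132, in exon 1 of each gene, at chr10:117128612-117128701 for Lyz1 and chr10:117118016-117118105 for Lyz2, and is written on the coding strand with the 13 differing bases in capitals:
Lyz1: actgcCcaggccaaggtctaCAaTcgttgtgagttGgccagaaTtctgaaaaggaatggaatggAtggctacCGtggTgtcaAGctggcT
Lyz2: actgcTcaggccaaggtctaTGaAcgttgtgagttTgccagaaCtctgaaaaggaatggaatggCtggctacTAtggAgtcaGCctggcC

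Of the 100-base words of the Lyz1 transcript, 2.1% also occur in Lyz2, and of the 31-base words 34.2% do. The division of counts between these genes is therefore an estimate, and the values for Lyz1, the rarer of them, are uncertain to that extent. Lyz1 made up 2.63% to 4.46% of the counts of both genes in wild-type females and 4.05% to 5.05% in Pou2f3-/- females. Its share was 1.74% (95% Wilson interval 1.22% to 2.49%), 2.79% (2.08% to 3.74%) and 3.21% (2.47% to 4.15%) in wild-type males, and 5.22% (4.59% to 5.92%), 5.23% (4.36% to 6.25%) and 5.90% (5.24% to 6.63%) in Pou2f3-/- males. These intervals cover counting error only. The male groups did not overlap, and an exact test of 3 replicates against 3 cannot give a p under 0.1.

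The genotype effect on both lysozyme transcripts differed between the sexes, being higher in males than in females. Lyz2 was at 116, 26.9 and 47.2 CPM in wild-type females, 24.4, 47.4 and 33.1 CPM in Pou2f3-/- females, 19.9, 23.6 and 23.3 CPM in wild-type males and 32.8, 67.8 and 64.2 CPM in Pou2f3-/- males. Lyz1 was at 4.26, 1.26 and 1.28 CPM in wild-type females, 1.04, 2.00 and 1.76 CPM in Pou2f3-/- females, 0.572, 0.781 and 0.414 CPM in wild-type males and 1.81, 4.25 and 3.53 CPM in Pou2f3-/- males. For both genes the Pou2f3-/- males lay above the wild-type males without overlap (14.5% of all genes tested), and the female genotypes overlapped.

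In males, Pou2f3-/- was 2.44 higher on the log2 scale for Lyz1 (SE 0.50, 95% interval 1.36 to 3.51) and 1.30 higher for Lyz2 (SE 0.43, 95% interval 0.37 to 2.23). Neither was called in edgeR, with adjusted p of 0.083 and 0.24. DESeq2 called Lyz1 (2.46, adjusted p = 4.8e-05). Without a filter on low counts edgeR called Lyz1 (2.44, adjusted p = 0.00053) and Lyz2 (1.30, adjusted p = 0.017). Lyz1 was also called without Pou2f3-/- male replicate 1 (2.72, adjusted p = 0.016), where 3.42% of all genes were called against 0.235% with all libraries. It was called as well without wild-type female replicate 1 (2.48, adjusted p = 0.016), where 0.353% were. In females the differences were -0.51 for Lyz1 (SE 0.47, adjusted p = 0.43) and -0.86 for Lyz2 (SE 0.43, adjusted p = 0.13). They rested on wild-type female replicate 1, without which they were 0.27 and -0.15. Lyz2 was called lower in the knockouts without wild-type female replicate 2 (-1.26, adjusted p = 0.024) and without a filter on low counts (-0.87, adjusted p = 0.033).

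The genotype effect differed between the sexes by 2.95 for Lyz1 (SE 0.68, adjusted p = 0.011) and by 2.16 for Lyz2 (SE 0.61, adjusted p = 0.023). Without wild-type female replicate 1 these were 2.20 (adjusted p = 0.010) and 1.49 (adjusted p = 0.025). The Lyz2 call was lost without wild-type male replicate 1 (2.09, adjusted p = 0.060), Pou2f3-/- male replicate 2 (1.99, adjusted p = 0.053) or Pou2f3-/- male replicate 3 (2.04, adjusted p = 0.052). Without the 3 libraries highest in Muc19 or Amy1 both calls were lost (2.56, adjusted p = 0.12, and 1.98, adjusted p = 0.17), and with library totals alone that of Lyz2 was (1.61, adjusted p = 0.062). With the counts of both genes added and treated as 1 gene, the difference was 2.19 (adjusted p = 0.021).

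Between the sexes in wild type, males had less of both lysozymes, by 1.95 on the log2 scale for Lyz1 (SE 0.50, adjusted p = 0.0082) and by 1.51 for Lyz2 (SE 0.43, adjusted p = 0.016). Without wild-type female replicate 1 these were -1.14 (adjusted p = 0.047) and -0.78 (adjusted p = 0.088), and without wild-type male replicate 1 Lyz2 was at -1.43 (adjusted p = 0.058). Without the 3 libraries highest in Muc19 or Amy1 neither was called (-1.75, adjusted p = 0.062, and -1.54, adjusted p = 0.073), nor with library totals alone (-1.15, adjusted p = 0.055, and -0.68, adjusted p = 0.18). Among the knockouts the values were 1.00 for Lyz1 (SE 0.47, adjusted p = 0.10), called without wild-type female replicate 1 (1.06, adjusted p = 0.025) and without a filter on low counts (1.01, adjusted p = 0.043), and 0.65 for Lyz2 (SE 0.43, adjusted p = 0.24). In order of mean level, Lyz2 ran from wild-type females at 63.3 CPM ± 46.6 (SD, n = 3) through Pou2f3-/- males at 54.9 ± 19.3 and Pou2f3-/- females at 34.95 ± 11.6 to wild-type males at 22.3 ± 2.06. The first 3 of these groups overlapped one another. Without replicate 1 the wild-type female mean was 37.1 CPM, below that of Pou2f3-/- males.

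Macrophage markers were high in the libraries that were high in lysozyme. The summed level of 12 macrophage markers, Lyz2 left out, was 99.5 to 228 CPM in wild-type females, 83.0 to 123 in Pou2f3-/- females, 101 to 122 in wild-type males and 126 to 209 in Pou2f3-/- males. Each of the 12 exceeded 3 counts in at least 1 library. In Pou2f3-/- females 4 were called lower (C1qa, Cx3cr1, Adgre1 and C1qb), where 19.3% of all genes were, with a median of -0.49 over the 12. Without wild-type female replicate 1 none was called (median -0.30), and Adgre1 went from -1.59 to -0.29, and without the 3 libraries highest in Muc19 or Amy1 none was called either (median -0.48). In Pou2f3-/- males none was called, 7 had an unadjusted p under 0.05 (the share of all genes at that cut is not given), and the median was 0.71. The difference between the sexes in the genotype effect was called for 6, all higher in males as for the lysozymes, where 25.7% of all genes were called and 12.4% higher. Among them were C1qa at 1.47 (SE 0.36, adjusted p = 0.014) and C1qb at 1.49 (SE 0.37, adjusted p = 0.015). It was called for 5 without wild-type female replicate 1, where 30.2% of all genes were called and Cd163 was lost (1.32, adjusted p = 0.067). None of the 6 was called without the 3 libraries highest in Muc19 or Amy1 (adjusted p from 0.12 to 0.21), with a median of 1.11 over the 12. Between the sexes in wild type, 6 of the 12 were called lower in males, as the lysozymes were (C1qb, Adgre1, Cd68, Cx3cr1, C1qc and C1qa), where 16% of all genes were. The median of the 12 was -0.70, and C1qb was at -0.99 (SE 0.27, adjusted p = 0.011). Cd14 alone was called higher, at 16.7 to 22.8 CPM in wild-type males and 3.08 to 5.02 CPM in wild-type females (5.02-fold, adjusted p = 8.5e-07). Without wild-type female replicate 1 the calls were C1qb (-0.72, adjusted p = 0.046) and Cd14, and without the 3 libraries they were these same genes. Among the knockouts 6 of the 12 were called higher in males, where 23.2% of all genes were. Cd14 alone of these was called without the 3 libraries, where 24.2% of all genes were called in either direction. Deviations from the group means correlated over the 12 libraries between Lyz2 and Csf1r, the receptor of a macrophage growth factor, with a Pearson r of 0.94, and between Lyz1 and Lyz2 with 0.89. With the acinar marker Aqp5 the r was -0.86 for Lyz2 and -0.78 for Lyz1. These points share libraries and their scaling.

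In males the ratio of Lyz2 to single macrophage markers was higher in Pou2f3-/- without overlap for 7 of the 8 markers compared. Cx3cr1, Ms4a7, Cd14 and Fcgr1 of the list were not compared, and the 8 ratios share the Lyz2 counts. How many other genes separate in such ratios was not computed, so 7 of 8 cannot show an excess. By level, 14.5% of all genes tested did not overlap between the male genotypes. Lyz2 over Csf1r counts was 0.924 to 1.02 in wild-type males and 1.24 to 1.85 in Pou2f3-/- males, over C1qa counts 1.89 to 2.12 and 2.87 to 3.16, and over Adgre1 counts 3.50 to 4.68 and 4.98 to 6.24. The exception was Cd163, a marker of resident macrophages, over which Lyz2 was at 4.10 to 5.36 and 3.90 to 5.72. In females the genotypes overlapped for 7 of the 8, with 1.37 to 3.76 in wild type and 1.42 to 1.74 in Pou2f3-/- over Csf1r. Over Mrc1 they did not, with 3.59 to 5.86 in wild type and 2.57 to 3.53 in Pou2f3-/- females. Haemoglobin and other blood markers summed to 1.45 to 1.73 CPM in wild-type males and 2.89 to 9.86 CPM in Pou2f3-/- males, with the 2 highest values in Pou2f3-/- male replicates 2 and 3, which were also highest in Lyz1 and Lyz2 among males. The lymphoid markers, led by Ptprc, summed to 41.6 CPM in wild-type female replicate 1 and to 10.2 to 25.1 CPM elsewhere. The part of macrophage or blood content in the lysozyme differences was not tested. The genes whose log2 CPM was most like that of Lyz2 were Ap1s2 (Pearson r 0.98), Mpp1 (0.98) and Sla (0.98), and Cpne2 (0.95), Trim35 (0.94) and Cma1 (0.94) for Lyz1.

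**Figure D5:**
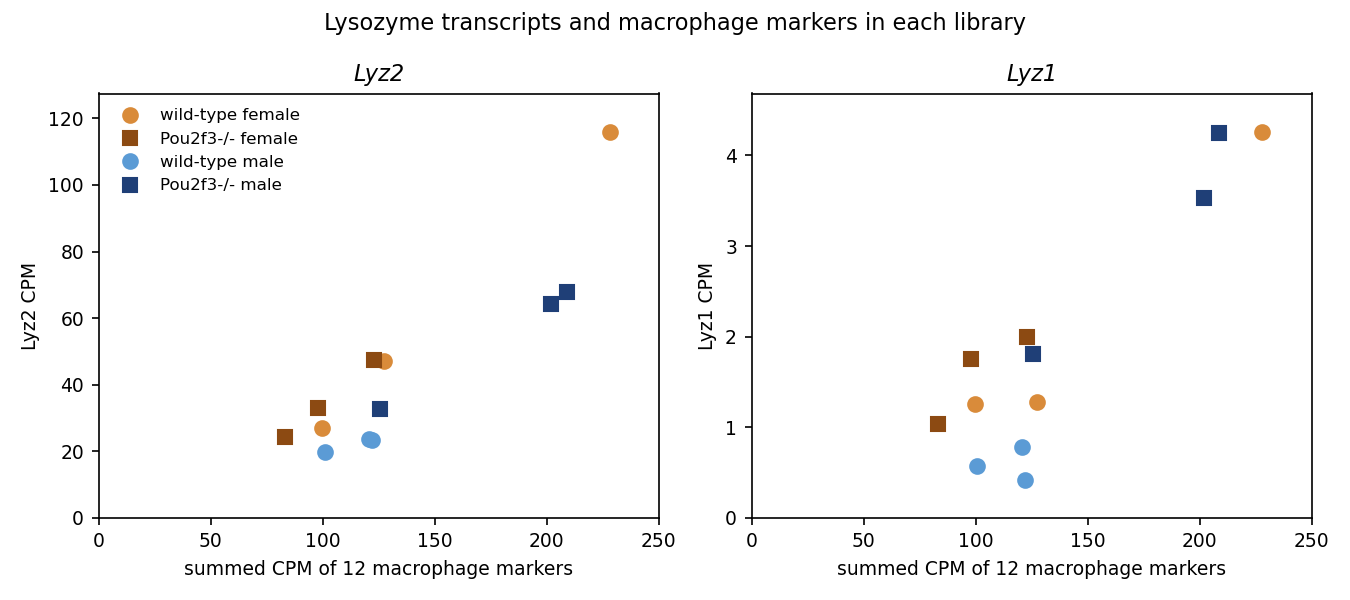
Lyz2 (left) and Lyz1 (right) in CPM against the summed CPM of 12 macrophage markers, 1 point per library. Wild-type female replicate 1 and Pou2f3-/- male replicates 2 and 3 hold the highest values on all axes, and the wild-type males lie lowest in lysozyme, at marker sums of 101 to 122 CPM that include 16.7 to 22.8 CPM of Cd14.

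Wfdc18, a small secreted protein of the whey acidic protein family (ENSMUSG00000000983.14, plus strand, chr11:83599841-83602174), overlapped between genotypes and was lower in Pou2f3-/- males than in Pou2f3-/- females. It was at 10.1, 17.8 and 12.9 CPM in wild-type females, 16.1, 10.3 and 17.6 CPM in Pou2f3-/- females, 6.65, 8.84 and 11.9 CPM in wild-type males and 8.44, 9.18 and 7.49 CPM in Pou2f3-/- males. The genotype differences were 0.11 in females (95% interval -0.43 to 0.64) and -0.12 in males (95% interval -0.66 to 0.41). Pou2f3-/- males had less than Pou2f3-/- females, by 0.81 on the log2 scale (SE 0.25, adjusted p = 0.019), and the groups did not overlap (54.8% of all genes tested). This call was lost without Pou2f3-/- female replicate 1 (-0.68, adjusted p = 0.085) or 3 (-0.60, adjusted p = 0.11), or Pou2f3-/- male replicate 3 (-0.73, adjusted p = 0.070), and without the 3 libraries highest in Muc19 or Amy1 (-0.72, adjusted p = 0.091) or with library totals alone (-0.55, adjusted p = 0.13). In wild type the difference was -0.58 (SE 0.25, adjusted p = 0.086), and it was called with DESeq2 (-0.63, adjusted p = 0.039), with the authors' factors (-0.78, adjusted p = 0.038), without a filter on low counts (-0.57, adjusted p = 0.031), without wild-type female replicate 1 (-0.79, adjusted p = 0.028) and without wild-type male replicate 3 (-0.81, adjusted p = 0.036). The genes most like Wfdc18 were Cbs (Pearson r 0.91), Gm12409 (0.89) and Rundc3a (0.89).

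Slpi, the leukocyte protease inhibitor (ENSMUSG00000017002.15, minus strand, chr2:164195990-164231015), had 0 to 2 counts per library and 9 in all. Its locus overlaps Matn4 on the same strand, which had 7 to 62 counts. At this depth a true level of up to 3 counts (0.0399 to 0.0782 CPM by library) can go unseen, so that no group difference was detectable.

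Of the other whey acidic protein genes, 14 of the 15 listed were in the table and 6 were tested. Wfdc12 was the most abundant, at 686 to 1140 CPM in wild-type females, 298 to 364 in Pou2f3-/- females, 2020 to 2995 in wild-type males and 1454 to 1799 in Pou2f3-/- males. No pair of these groups overlapped. Between genotypes this was also so for 49.3% of all genes tested in females and 14.5% in males. Between the sexes it was so for 47.6% in wild type and 54.8% among the knockouts. Wfdc12 fell in Pou2f3-/- females by 1.45 on the log2 scale (SE 0.21, adjusted p = 0.00039), and was at -0.60 in males (adjusted p = 0.26), a difference between the sexes of 0.85 (SE 0.29, adjusted p = 0.044) that was not called without the 3 libraries highest in Muc19 or Amy1 (0.84, adjusted p = 0.18). Males were higher by 1.42 in wild type and by 2.28 among the knockouts. Wfdc17, a gene of activated macrophages, differed between the sexes in its genotype effect by 3.42 (SE 1.13, adjusted p = 0.042), with 3.81 CPM in wild-type female replicate 1 and 0.179 to 1.78 CPM elsewhere, and without the 3 libraries by 2.96 (adjusted p = 0.24). Wfdc3 was higher and Wfdc1 lower in males of both genotypes, all at or under 1.63 CPM. Without the 3 libraries Wfdc1 was called in neither (-1.74, adjusted p = 0.054, in wild type and -1.26, adjusted p = 0.16, among the knockouts). None of the 6 was called between genotypes in males, where 1 (Wfdc12) had an unadjusted p under 0.05 in edgeR. The median of the 6 was -0.67 in the female genotype comparison, against 0.03 over all genes tested.

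The calprotectin genes S100a8 (ENSMUSG00000056054.10, chr3:90567118-90578128, plus strand) and S100a9 (ENSMUSG00000056071.13, chr3:90599931-90603071, minus strand) had 4 counts each in the 12 libraries together. S100a8 had 1 and 3 counts in Pou2f3-/- male replicates 1 and 3 and 0 in the other libraries. S100a9 had 2 and 1 counts in Pou2f3-/- male replicates 2 and 3, 1 count in wild-type female replicate 2 and 0 in the others. Camp (ENSMUSG00000038357.11, chr9:109676442-109678685, minus strand) had a single count, in Pou2f3-/- female replicate 3. All 3 were at or under the limit that a count of 0 allows.

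Of the 15 genes of the neutrophil list, Mmp9, Csf3r and Il1r2 were tested, and the summed level of the list was 1.28 to 2.72 CPM in wild-type females, 2.02 to 2.87 in Pou2f3-/- females, 1.72 to 2.61 in wild-type males and 3.44 to 5.06 in Pou2f3-/- males. Mmp9, a protease that macrophages and other cells also make, rose in Pou2f3-/- females by 1.07 on the log2 scale (SE 0.26, adjusted p = 0.0061), and in males it was at 0.86 (adjusted p = 0.17). None of the 3 was called between genotypes in males, with Il1r2 at 1.78 (adjusted p = 0.19), Csf3r at 1.22 (adjusted p = 0.37) and a median of 1.22. All 3 had an unadjusted p under 0.05 in edgeR there, and the share of all genes at that cut is not given.

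Of 13 other S100 genes, calcium-binding proteins with many roles, 9 were tested. S100a16 fell in Pou2f3-/- females, from 15.5 to 22.6 CPM in wild type to 9.99 to 11.2 CPM, by 0.79 on the log2 scale (SE 0.15, adjusted p = 0.0013). None was called between genotypes in males, where 3 had an unadjusted p under 0.05. The genotype effect differed between the sexes for S100a16 (1.04, adjusted p = 0.0059), S100a4 (1.81, adjusted p = 0.014) and S100a10 (1.097, adjusted p = 0.038). None of them was called without the 3 libraries highest in Muc19 or Amy1 (0.98, 1.82 and 0.80, with adjusted p = 0.092, 0.092 and 0.22). S100a1 was 8.47-fold higher in male than in female wild type (3.08 on the log2 scale, SE 0.22, adjusted p = 4e-07) and 11.9-fold higher among the knockouts (3.58, SE 0.22, adjusted p = 2.4e-07). In all, 3 were higher and 1 lower in male than in female wild type, where 20.5% and 16% of all genes were. In male against female knockouts 6 were higher, where 23.2% of all genes were, and 3 of them without the 3 libraries.

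Of 26 other antimicrobial and mucosal defence genes, 11 were tested, and the defensin Defb1 and the lectins Reg3b, Reg3g and Itln1 were among the 15 that were not. Pip, a secreted protein of acinar cells, fell in Pou2f3-/- females by 1.03 on the log2 scale (SE 0.23, adjusted p = 0.0046), and Car6, the secreted carbonic anhydrase of saliva, by 0.85 (SE 0.23, adjusted p = 0.013). Car6 was at -0.92 (adjusted p = 0.068) without the 3 libraries highest in Muc19 or Amy1. None was called between genotypes in males, where 3 had an unadjusted p under 0.05. Pigr, the receptor that carries immunoglobulin A into saliva, was at 219 to 371 CPM in wild-type females and 44.1 to 80.0 CPM in wild-type males, and was lower in males by 2.34 (SE 0.23, adjusted p = 6.8e-06) in wild type and by 1.81 (SE 0.23, adjusted p = 4.6e-05) among the knockouts. Car6 and Azgp1 were also lower in males of both genotypes and Pip in wild-type males. Pglyrp1, which binds peptidoglycan, was higher in wild-type males (2.47, SE 0.85, adjusted p = 0.037), and Cst3, a protease inhibitor, was higher in Pou2f3-/- males than females (0.70, SE 0.18, adjusted p = 0.0083). Rnase4 was the one gene of this list whose genotype effect differed between the sexes (1.24, SE 0.38, adjusted p = 0.032). Not called without the 3 libraries were this difference for Rnase4 (0.81, adjusted p = 0.25), Pglyrp1 in wild type (1.55, adjusted p = 0.089), and Cst3 (0.55, adjusted p = 0.12) and Car6 (-1.03, adjusted p = 0.056) between the sexes in the knockouts. Pglyrp1 gained a call there, from 1.21 (adjusted p = 0.23) to 2.61 (adjusted p = 0.021). The median of the 11 was -0.23 in the female and 0.37 in the male genotype comparison, against 0.03 and -0.04 over all genes tested.

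Of 20 genes of the pathways that switch on defence proteins 15 were tested, and 5 were called in females, where 36.9% of all genes were. In Pou2f3-/- females Cebpb (-0.51, adjusted p = 0.014), Nfkbia (-0.45, adjusted p = 0.022) and Stat3 (-0.30, adjusted p = 0.024) fell, while Il1r1 (0.39, adjusted p = 0.045) and Cebpd (0.45, adjusted p = 0.046) rose. None of the 5 was called without the 3 libraries highest in Muc19 or Amy1 (adjusted p from 0.051 to 0.14). The values were then -0.42 for Cebpb, -0.46 for Nfkbia, -0.26 for Stat3, 0.47 for Il1r1 and 0.56 for Cebpd. Cebpd was named after its value was seen. Cebpb and Cebpd are transcription factors that act on acute phase genes, Nfkbia is an inhibitor and target of NF-kB, Stat3 transmits interleukin signals and Il1r1 is the interleukin-1 receptor. None was called between genotypes in males, where 3 had an unadjusted p under 0.05. The genotype effect differed between the sexes for Nfkbia (0.71, adjusted p = 0.020) and Cebpb (0.71, adjusted p = 0.024). Neither was called without the 3 libraries (0.62, adjusted p = 0.13, and 0.54, adjusted p = 0.22). Between the sexes in wild type 5 of the 15 were called, all lower in males, where 16% of all genes were. The 4 that held without the 3 libraries were Il17rc, a receptor chain for interleukin-17 (-1.28), Cebpb (-0.91), Tlr2 (-0.86) and Nfkbia (-0.47). Among the knockouts Il17rc was lower in males by 1.11, and Stat3 was higher by 0.30 but not called without the 3 libraries (0.30, adjusted p = 0.11). The cytokines Il6, Il17a and Il22, which induce Lcn2 and the calprotectin genes in other epithelia, were at 0 in all 12 libraries.

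Duct and neighbouring gland markers were compared in the same way. Of 7 duct markers, 3 were lower in Pou2f3-/- females (Kit, Krt8 and Ascl3), where 19.3% of all genes were called lower and 36.9% in either direction. None was called between genotypes in males (2 with an unadjusted p under 0.05 in edgeR), and Krt7 and Cftr were higher and Kit lower in males of both genotypes. Of 7 markers of the sublingual and parotid glands, Car6, which was at 4392 CPM or more in every library and highest in wild-type females, was the one called in Pou2f3-/- females, and none was called in males (1 with an unadjusted p under 0.05 in edgeR). Without the 3 libraries highest in Muc19 or Amy1 the calls in females of Krt8 (-0.40, adjusted p = 0.086), Ascl3 (-0.88, adjusted p = 0.11) and Car6 (-0.92, adjusted p = 0.068) were lost. Those of Kit between the sexes were lost in wild type (-0.48, adjusted p = 0.054) and among the knockouts (-0.49, adjusted p = 0.067).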

How the data were processed

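SMG tissue of 12 mice in 4 groups of 3 was sequenced as paired 100-base reads from stranded, ribosomal RNA-depleted libraries, although the labels name polyA RNA. The authors made the deposited estimated counts per gene with Salmon 1.10.1 on Gencode M35 (GRCm39). The second deposited table is a normalized signal: the authors divided these counts by factors for each gene and library, by a method not given in the sources used here. It served only for an alternative scaling.

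Gene names were matched in Gencode M39 (55563 of 56065 identifiers). Counts were rounded to whole numbers and scaled by TMM (factors 0.625 to 1.45). The factors were 0.625 to 0.759 in wild-type and 0.902 to 1.03 in Pou2f3-/- females. In males they were 1.04 to 1.45 in wild type and 1.11 to 1.25 in Pou2f3-/-. They thus did not overlap between the female genotypes, nor between the sexes within a genotype. Genes were filtered with filterByExpr (17893 kept) and fitted over all 12 libraries with edgeR 4.0.16 (quasi-likelihood test, R 4.3.3). The fit had 1 mean per group and Benjamini-Hochberg adjustment within each of 5 comparisons. DESeq2 1.42.0 was an alternative. Each SE was derived from the fold change and its F statistic (size of the log2 value over root F), and likeness between genes was taken on log2 CPM with 2 prior counts added. CPM are counts over effective library size, and levels per kb use the length of the canonical transcript. The fits were tested on simulated data. All 10 genes are named, and from each related list and comparison up to 4 called genes with the smallest adjusted p, undetected genes that define a cell type and the 3 genes most like each member. Members and lists were chosen with earlier results of these data known. The replicates are separate mice. Alternatives comprised other scalings, filters, tools, a replicate block and leaving out each library. One item of the marker lists is not reported here.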

Additional observations from a re-analysis of the deposited data

Results flagged for a closer look

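Some results were set aside because the knockout effect differed between the sexes by a test of the difference itself (edgeR, adjusted p under 0.05). Values are the log2 genotype difference in males minus that in females. Among the antimicrobial genes they were 2.95 for Lyz1 and 2.16 for Lyz2. Among the related and upstream genes they were 3.42 for Wfdc17, 2.17 for Gpx3, 1.81 for S100a4, 1.24 for Rnase4, 1.097 for S100a10, 1.04 for S100a16, 0.85 for Wfdc12, 0.71 for Cebpb, 0.71 for Nfkbia and -1.19 for Slc5a5. Among macrophage markers they were 2.33 for Adgre1, 1.57 for Cd163, 1.49 for C1qb, 1.48 for Fcgr1, 1.47 for C1qa and 1.34 for C1qc. Among blood markers they were 3.82 for Hbb-bs and 2.56 for Alas2. Such a call was made for 25.7% of all genes tested, and for 3 genes in all after the 3 libraries highest in Muc19 or Amy1 were left out, none of them named here.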

How the results depend on the processing

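Of the 10 genes, 1 was called between genotypes in females, and 2 were called without a low-count filter (20.1% of all genes) and 0 with library totals alone (40.2%). Of the males' 0, 3 were called without a low-count filter (1.26% of all genes) and 2 with DESeq2 (2.31%). For the difference between the sexes in the genotype effect, the 2 called became 1 with library totals alone (32.7%) and 0 without the 3 libraries highest in Muc19 or Amy1 (0.0164%). In male against female wild type, 4 became 1 (69.4%) and 2 (23.2%) under the same changes, and among the knockouts 3 became 1 under both (39% and 24.2%). Leaving out each library in turn gave 1 to 2, 0 to 2, 1 to 3, 3 to 5 and 1 to 4 called genes in these 5 comparisons. In the same order, the share of all genes called ran from 26.5% to 38.4%, 0.0702% to 3.42%, 12.9% to 30.2%, 27% to 36% and 33.7% to 44.8%. Directions reversed for values that were not called, apart from Lpo between the sexes in wild type, at 0.038 with library totals alone. With library totals alone Lpo was also at -0.38 for the difference between the sexes in the genotype effect, Wfdc18 at 0.33 in male against female wild type and Ltf at 0.20 in male against female knockouts. With the authors' factors Wfdc18 was at -0.10 in females and Ltf at -0.013 in male against female wild type. Without the 3 libraries Wfdc18 was at -0.046 in females, 0.041 in males and 0.086 for their difference. Leaving out single libraries took Lyz1 from -0.83 to 0.27 in females, Wfdc18 from -0.13 to 0.30 in females, from -0.31 to 0.11 in males and from -0.41 to 0.042 for their difference, and Lpo from -0.017 to 0.44 for that difference. It took Ltf from -1.70 to 0.94 for that difference, from -1.03 to 1.67 in male against female wild type and from -0.71 to 0.84 among the knockouts. The cause of these changes was not tested, other than that leaving out libraries leaves fewer samples.

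A replicate block left the number of called members as it was, at 1, 0, 2, 4 and 3, with Lpo at -0.95 (adjusted p = 0.0029) in females and Ltf at 0.21 in male against female knockouts, the opposite sign. Calls over all genes went from 6611 to 6349 in females, 42 to 44 in males, and 4604 to 4354 for the difference. Samples of the same number did not deviate together (r from -0.113 to 0.050 in females and -0.135 to 0.090 in males). With 3 such pairs per sex, this cannot exclude that they share more than a number. The scaling by library totals, the joint lysozyme count and the omission of the 3 libraries, and of wild-type female replicate 1 for the macrophage markers, were chosen after seeing the data. Ltf was not tested when at least 10 counts were asked in every library, nor without the 3 libraries highest in Muc19 or Amy1, which hold its highest counts. Slpi, S100a8, S100a9 and Camp are limited by depth.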
